A study of Homo sapiens with 30 samples.

Results

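Kruppel-like factors (KLFs) are transcription factors that carry a conserved block of zinc fingers at the carboxy terminus and bind CACCC and GC-rich elements in promoters. Members of this family act as activators, as repressors or as both, and in epithelial and tumor cells they are known for roles in proliferation, differentiation and the response to extracellular signals. Bone morphogenetic protein 7 (BMP7) is a secreted ligand of the TGF-β superfamily that signals through serine/threonine kinase receptors and SMAD proteins, and KLF10 and KLF11 were first described as genes induced early by TGF-β. The 10 factors KLF2, KLF3, KLF4, KLF5, KLF6, KLF7, KLF9, KLF10, KLF11 and KLF13 were taken by gene symbol out of 30484 distinct gene names on the array.

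The expression of these 10 genes was followed in 5 human breast cancer cell lines, HCC1954, MDA-MB-231, MDA-MB-361, T-47D and ZR-75-30, each given recombinant BMP7 or vehicle for 0.5, 1, 3, 6, 12 or 24 h (0.5 h is written as 30 min from here on). For each line and time the BMP7-treated cells (Cy5) were hybridized against the vehicle-treated cells (Cy3) on 1 two-color oligonucleotide array, giving 30 arrays, with no dye swap and no repeated array. Cells of parallel cultures had been pooled before RNA extraction, so the tests below use either the 5 lines or the time points of a line as replicates. MDA-MB-231 and T-47D were grown with less serum than recommended, so line and serum cannot be told apart for them. The share of probes well above background in both channels ranged from 53.8% to 68.3% over the 30 arrays. In vehicle, ERBB2 was high in MDA-MB-361, HCC1954 and ZR-75-30 (mean log2 level 7.24, 7.09 and 6.54) and lower in MDA-MB-231 (1.95) and T-47D (3.35). ESR1 was not well above background on any MDA-MB-231 array. It was dim in HCC1954 (-3.93) but well above background on all 6 arrays there. CDH1 was between 4.83 and 6.79 in all lines except MDA-MB-231 (-1.80). VIM was highest in MDA-MB-231 (6.93), followed by HCC1954 (4.41), and read -4.84 to -2.03 in the remaining lines. The epithelial keratin genes KRT8 and KRT18 were lowest in MDA-MB-231 (3.49 and 5.63) but well above background on all 6 arrays there. In the other lines they read 5.85 to 6.58 and 6.66 to 7.33. Of the markers of other cell types, PTPRC (leukocytes) exceeded background clearly on 0 of 30 arrays and PECAM1 (endothelium) on all 6 HCC1954 and 3 MDA-MB-231 arrays only, COL1A1 (fibroblasts) was well above background in the vehicle channel on 1 MDA-MB-231, 4 ZR-75-30 and all arrays of the other lines, and the dim CD3E probe (T cells) was above background on all arrays.

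The array held 18 probes for the 10 genes, 1 probe for 4 genes and several for the other 6. Each gene was read from its brightest probe, and these probes were well above background in both channels on 29 or 30 of the 30 arrays. Of 300 possible log ratios 298 were usable, since KLF6 and KLF10 were marked as outlier spots on the 6 h array of MDA-MB-231. In hg18 the probe of KLF2 lay at chr19:16299246-16299305, that of KLF5 at chr13:72548980-72549039, that of KLF6 at chr10:3811387-3811446 and that of KLF4 at chr9:109287870-109287929. Probe positions came from the array design, and exon or UTR annotation of that build was not used here.

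The 250 bases before the start sites of KLF5 and KLF2 are shown because these genes carried the largest BMP7 ratio and the only change with time in vehicle, respectively. Sequences are from RefSeq (GRCh38.p14, plus strand, 5′ to 3′), and capitals mark matches to a searched motif, which in KLF5 are CACCC, here read on the opposite strand as GGGTG, and the TATA-box letters TATAAA, and in KLF2 a MEF2 motif.
KLF5, chr13:73054726-73054975: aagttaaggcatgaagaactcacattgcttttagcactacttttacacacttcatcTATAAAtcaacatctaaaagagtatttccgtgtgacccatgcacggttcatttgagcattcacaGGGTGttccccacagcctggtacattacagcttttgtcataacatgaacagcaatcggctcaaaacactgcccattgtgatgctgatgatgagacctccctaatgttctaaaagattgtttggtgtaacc
KLF5, chr13:73058755-73059004: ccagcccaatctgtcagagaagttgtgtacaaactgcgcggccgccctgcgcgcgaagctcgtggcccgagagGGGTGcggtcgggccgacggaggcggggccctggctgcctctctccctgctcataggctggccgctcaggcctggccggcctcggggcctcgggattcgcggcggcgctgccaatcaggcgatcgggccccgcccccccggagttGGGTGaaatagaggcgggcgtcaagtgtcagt
KLF2, chr19:16324576-16324825: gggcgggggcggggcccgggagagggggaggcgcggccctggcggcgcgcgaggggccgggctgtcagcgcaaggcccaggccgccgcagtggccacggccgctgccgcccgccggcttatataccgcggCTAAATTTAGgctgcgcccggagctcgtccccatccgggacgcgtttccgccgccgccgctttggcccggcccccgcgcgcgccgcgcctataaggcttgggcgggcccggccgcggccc
The upstream KLF5 window held 1 CACCC and 1 TATAAA match, the other KLF5 window held 2 CACCC matches, and the KLF2 window held 1 MEF2 match and no CACCC. Over 13 start-site windows of 8 of the genes, CACCC, the element that KLFs themselves bind, was found in 6 and CACGTG in 4 (KLF4, KLF6, KLF7 and KLF11), compared with 54.7% and 6.34% of all 35116 windows of this length. TGACGTCA was found in 1 KLF11 window (1.65% of all windows), GGCGCC in 1 KLF7 window (16.4%) and GTCTAGAC in none (0.182%), while the TATAAA match of KLF5 and the MEF2 match of KLF2 were motifs of 10.7% and 2.80% of all windows. Both strands were searched, none of these motifs overlapped another in the windows shown, and a match is a description of letters and not of binding.

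The BMP7/vehicle ratios of the Kruppel-like factors were small, with a median size close to that of all probes well above background. Of the 298 log2 BMP7/vehicle ratios, 155 were above 0 and 143 below, they ranged from -0.89 to 1.61, and their median size was 0.15, beside 0.16 for all probes well above background. A single value passed 2-fold, KLF5 in T-47D at 24 h. That is 0.336% of the values, beside 1.87% of all single-array ratios and 0.798% of those well above background in both channels.

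**Figure D1:**
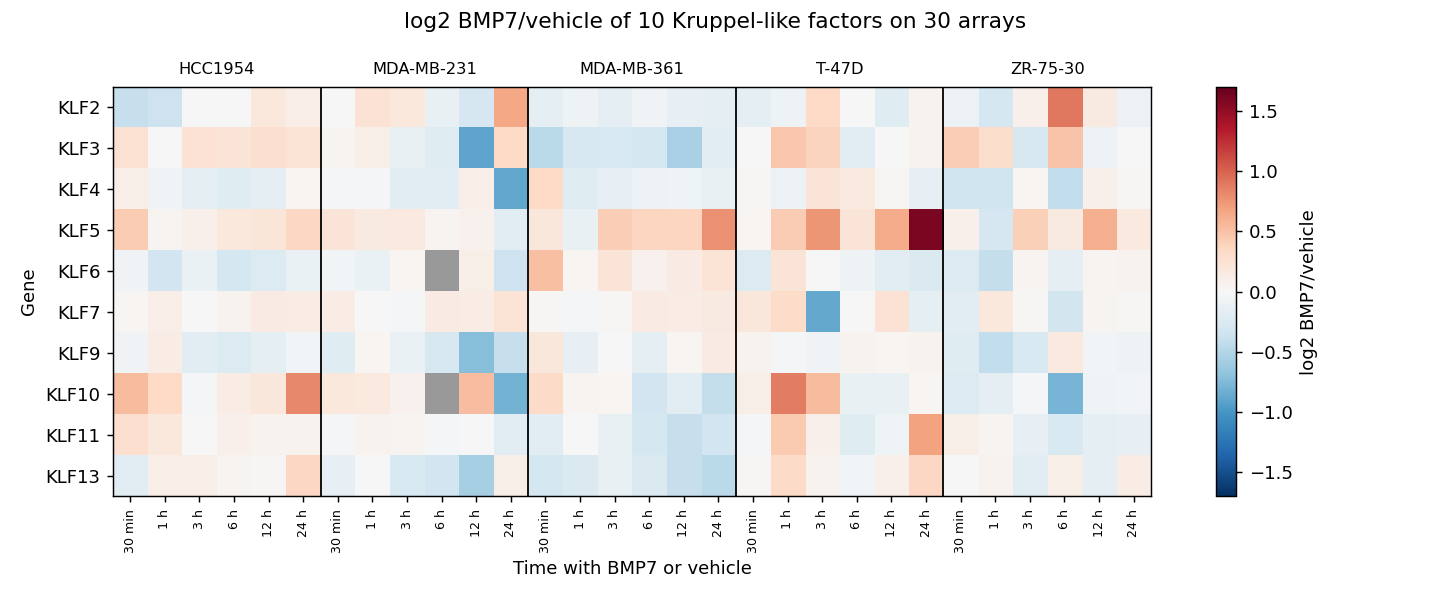
Map of log2 BMP7/vehicle for the 10 Kruppel-like factors (rows) on 30 arrays (columns, 6 times in each of 5 lines), red for higher and blue for lower with BMP7, grey for 2 values not used. KLF5 is above 0 on 27 of 30 arrays and holds the highest value, 1.61 in T-47D at 24 h.

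At a 1.5-fold limit 16 values passed, 10 up and 6 down, and they came from 8 genes. KLF5 gave 5 of them, all up: 0.75, 0.63 and 1.61 in T-47D at 3 h, 12 h and 24 h, 0.61 in ZR-75-30 at 12 h and 0.78 in the 24 h sample of MDA-MB-361. KLF10, also known as TGF-β-inducible early gene 1, gave 4 values in 4 different lines, 0.81 in HCC1954 at 24 h, 0.87 in T-47D at 1 h, -0.81 in MDA-MB-231 at 24 h and -0.79 in ZR-75-30 at 6 h, so both directions were seen. KLF2, best known in endothelial cells and lymphocytes, gave 0.90 in ZR-75-30 at 6 h and 0.65 in MDA-MB-231 at 24 h. The remaining values were -0.89 for KLF3 and -0.72 for KLF9 in MDA-MB-231 at 12 h, -0.88 for KLF4 in MDA-MB-231 at 24 h, 0.68 for KLF11 in T-47D at 24 h, and KLF7 in T-47D at 3 h, where the BMP7 channel was not well above background. KLF6 and KLF13 had no value past 1.5-fold. The ZR-75-30 array at 6 h and the T-47D array at 3 h belonged to a second scan batch, described below. That T-47D array had the lowest share of probes well above background in both channels (53.8%). The second KLF3 probe read 0.80 on the array where the first read -0.89, and all 18 probes together gave 1 value past 2-fold out of 537.

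Averaged over the 6 times of each line and tested over the 5 lines (limma, Benjamini-Hochberg adjustment over all probes), 0 of 10 genes passed an adjusted p of 0.05, as did 0.120% of all probes. KLF5, an activator of proliferation in basal epithelial cells, had the largest mean, 0.29 ± 0.08 (SE, n = 5 lines, 1.22-fold, adjusted p = 0.181 in limma). It was the 1 gene with an unadjusted p under 0.05, beside 6167 of 40034 probes. KLF9, a steroid and thyroid hormone responsive factor, averaged -0.10 ± 0.05 (adjusted p = 0.459 in limma) and KLF4, a regulator of epithelial differentiation and a reprogramming factor, -0.09 ± 0.05 (adjusted p = 0.405 in limma). The other 7 means lay between -0.06 and 0.05. The median over the 10 genes was -0.0067, beside -0.0031 over all probes tested.

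In the comparison of 3 h to 24 h with 30 min, which cancels a dye effect that is constant over arrays, again 0 of 10 genes passed (0.135% of all probes did). An unadjusted p under 0.05 in limma was reached by 0 of the 10, beside 6926 of 40034 probes. The largest differences were 0.23 ± 0.13 (SE) for KLF2 (adjusted p = 0.365 in limma), -0.22 ± 0.17 for KLF10 (adjusted p = 0.561) and 0.18 ± 0.15 for KLF5 (adjusted p = 0.598). The classical BMP targets ID1, ID2 and ID3, inhibitors of basic helix-loop-helix factors, rose in the same fit by 1.05 ± 0.22, 1.14 ± 0.16 and 0.92 ± 0.15 (adjusted p = 0.0489, 0.00138 and 0.0266 in limma), and the inhibitory SMAD gene SMAD6 rose by 0.57 ± 0.12 (adjusted p = 0.0489), whereas SMAD7 differed by 0.20 ± 0.11 (adjusted p = 0.363). The calls of ID1 and SMAD6 were lost in most of the alternative settings tried, those of ID2 and ID3 in fewer. A second scan batch held 6 arrays, 3 at 30 min, 2 at 6 h and 1 at 3 h. In the first batch alone KLF2 differed by 0.09, KLF10 by -0.29 and KLF5 by 0.50, again with 0 of 10 passing, and the 4 target genes gave 0.61 to 1.14 without passing (adjusted p = 0.219 to 0.409 in limma). The second batch alone, where MDA-MB-231 and ZR-75-30 had arrays at both 30 min and 6 h, gave 0.44 ± 0.39 (SE) for KLF2 and -0.05 ± 0.15 for KLF5 (adjusted p = 0.809 and 0.938 in limma), with 0 of 8 genes passing. KLF10 could not be fitted there, and ID1, ID2, ID3 and SMAD6 gave 0.46, 1.05, 0.69 and 0.22 without passing.

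**Figure D2:**
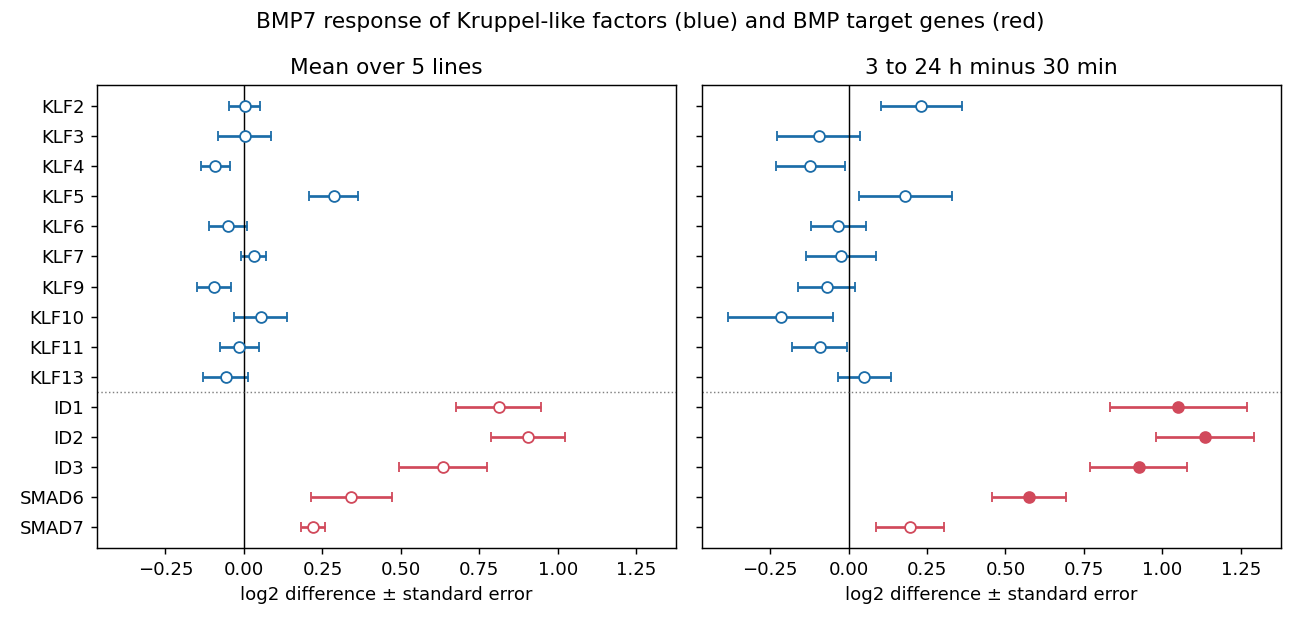
Log2 BMP7/vehicle averaged over 5 lines (left) and its difference between 3 to 24 h and 30 min (right) for 10 Kruppel-like factors (blue) and 5 BMP target genes (red). Points are limma estimates, bars standard errors and filled points an adjusted p under 0.05, which ID1, ID2, ID3 and SMAD6 reach on the right and no Kruppel-like factor reaches in either panel.

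When each time was tested on its own over the 5 lines, 0 of 60 combinations of gene and time passed (0.000445% of all probe tests, 1 of 224946). Of the 60, 4 had an unadjusted p under 0.05 in limma, beside 2175 of 37387 probes (24 h) to 4759 of 37778 (12 h) at a single time. The 4 combinations were all of KLF5, at 30 min (0.19), 3 h (0.37), 6 h (0.20) and 12 h (0.38 ± 0.11, SE, adjusted p = 0.376 in limma). The mean of KLF5 was highest at 24 h, 0.54 ± 0.25, where the lines also differed most. Since BMP7 was always in the Cy5 channel, a dye effect of a probe enters the mean and the single times, and its part in the KLF5 values was not tested. The brighter KLF5 probe was already above 0 at 30 min in all 5 lines, from 0.03 to 0.43. The second KLF5 probe was below 0 at 30 min in 4 of the 5 lines (-0.50 in ZR-75-30, -0.32 in T-47D, -0.21 in HCC1954 and -0.02 in MDA-MB-231) and read 0.48 in MDA-MB-361.

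Within lines, the KLF5 ratio varied with time. In T-47D it was 0.03, 0.44, 0.75, 0.23, 0.63 and 1.61 from 30 min to 24 h, and all 6 values were above 0. In HCC1954 all 6 values were also above 0, with a lowest of 0.05, a median of 0.19 and a highest of 0.43. MDA-MB-361 read 0.19, -0.13, 0.42, 0.37, 0.37 and 0.78 over the same times, so its 5 positive values included all from 3 h on. In ZR-75-30 the range was -0.28 to 0.61 and in MDA-MB-231 -0.20 to 0.22. The line means were thus 0.61 ± 0.55 (SD over 6 times) in T-47D, 0.33 ± 0.30 in MDA-MB-361, 0.22 ± 0.15 in HCC1954, 0.19 ± 0.30 in ZR-75-30 and 0.08 ± 0.15 in MDA-MB-231, all above 0 and overlapping.

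The single value past 2-fold went with a low vehicle reading. In T-47D the log2 vehicle level of KLF5, relative to the 75th percentile of each array, was -2.31, -2.29, -2.53, -2.04, -2.64 and -3.73 from 30 min to 24 h, whereas the BMP7 channel read -2.29, -1.83, -1.77, -1.81, -2.02 and -2.15. The vehicle reading at 24 h was therefore the lowest of the 6, and the BMP7 reading at 24 h lay within the range of the others. The ratio on that array was 1.61 (3.04-fold) from the scanner software, 1.51 in the series matrix of the depositors, 0.52 after normexp background correction (a model-based subtraction that keeps dim spots positive) with loess and 0.49 with normexp and median scaling. The second KLF5 probe gave 0.52 on the same array.

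**Figure D3:**
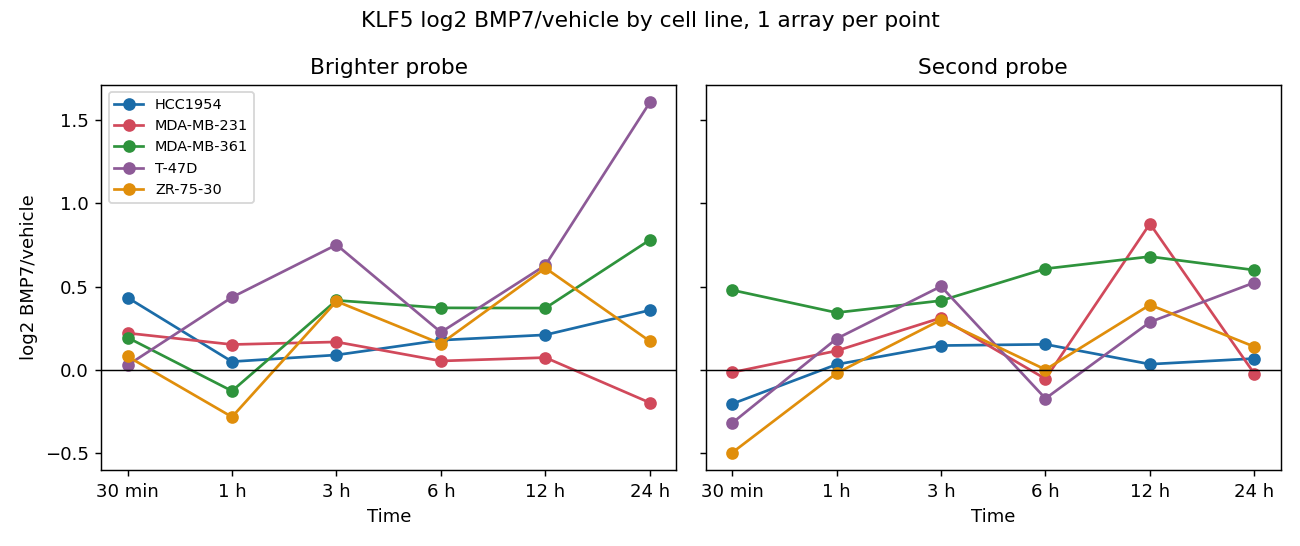
KLF5 log2 BMP7/vehicle against time in 5 cell lines, 1 array per point, for the brighter probe (left) and the second probe (right). T-47D reaches 1.61 at 24 h on the left and 0.52 on the right, and MDA-MB-361 is above 0 at all 6 times on the right.

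The 2 KLF5 probes had the same sign on 23 of 30 arrays. The second probe averaged 0.20 ± 0.08 over the lines (SE; adjusted p = 0.294 in limma) and differed between 30 min and the later times by 0.40 ± 0.11 (adjusted p = 0.0882), so like the first it did not pass, with an unadjusted p under 0.05 in both comparisons. With it, MDA-MB-361 held the highest median (0.54, range 0.34 to 0.68) and T-47D ranged from -0.32 to 0.52.

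Each line was next compared with the mean of the other 4 lines at 3 h to 24 h. Of 50 combinations of gene and line 0 passed, beside 1.36% of all probe tests, and 14 had an unadjusted p under 0.05 in limma. Of all 39620 probes, 2510 (MDA-MB-231) to 8095 (T-47D) had such a p in the comparison of a line. For T-47D, where 3.14% of all probes passed, KLF5 was 0.54 ± 0.16 (SE) above the other lines (adjusted p = 0.0749 in limma), and it passed (adjusted p = 0.0384) when only spots well above background in both channels were kept. This KLF5 difference was 0.28 without the 24 h arrays, 0.09 after normexp correction with loess and -0.03 when median scaling replaced loess. The second KLF5 probe gave -0.0054 for T-47D (adjusted p = 0.989 in limma), and its largest difference was 0.36 in MDA-MB-361 (adjusted p = 0.258). KLF6 in MDA-MB-361 was 0.27 ± 0.08 above (adjusted p = 0.172), KLF13 in the same line 0.29 below (log2 difference -0.29, adjusted p = 0.194) and KLF9 in MDA-MB-231 had a difference of -0.33 (adjusted p = 0.452).

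The reading probe of KLF6, an early response gene reported as a tumor suppressor in several epithelial cancers, separated MDA-MB-361 from HCC1954 without overlap. Neither line passed against the other lines with this probe (adjusted p = 0.172 for MDA-MB-361 and 0.286 for HCC1954 in limma). The KLF6 ratio was above 0 on all 6 MDA-MB-361 arrays, with a lowest of 0.04, a median of 0.17 and a highest of 0.52. It was below 0 on all 6 HCC1954 arrays, with -0.33, -0.17 and -0.06. A second KLF6 probe also read above 0 on all MDA-MB-361 arrays (0.14 to 0.33) and below 0 on all HCC1954 arrays (-0.45 to -0.20), and for this probe HCC1954 lay 0.35 ± 0.06 (SE) below the other lines (log2 difference -0.35, adjusted p = 0.0249 in limma). A further KLF6 probe, bright on all arrays, ran the other way (same sign as the reading probe on 8 of 29 arrays), and the fourth was well above background in both channels on only 13. The fourth probe was below 0 on all 6 HCC1954 arrays (-0.53 to -0.11) and had a median of -0.17 in MDA-MB-361. The separation of both lines was thus seen with 2 of the 4 KLF6 probes. The reading probe of KLF3 also separated them, in the other direction (-0.0031 to 0.28 in HCC1954, -0.55 to -0.17 in MDA-MB-361). The share of all probes that separated these lines without overlap was not counted.

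Some of the remaining genes had 1 sign on all 6 arrays of a line. KLF3, a repressor that recruits CtBP, was below 0 on all 6 MDA-MB-361 arrays (-0.55 to -0.17), as were KLF13, a factor known from T cells and erythroid cells (-0.46 to -0.13), and KLF2 (-0.16 to -0.06). KLF10 was below 0 on all 6 ZR-75-30 arrays, between -0.79 and -0.01. The dim second KLF2 probe had both signs in MDA-MB-361 (-0.32 to 0.21). The share of all probes with 1 sign on all 6 arrays of a line was not counted. Over 30 arrays the ratios of KLF3 and KLF13 correlated with r = 0.77, those of KLF4 and KLF10 with 0.63 and those of KLF3 and KLF6 with -0.56, which is a description over arrays that share lines and labeling. The median over all 45 pairs was 0.00. The second probes of KLF3 and KLF13 were dim and correlated negatively with the reading probes (r = -0.44 each; same sign on 14 and 7 of 30 arrays), so the direction of these genes differed with the probe.

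In contrast to the BMP7 response, the vehicle level of the Kruppel-like factors differed between lines in most comparisons, as did that of the other listed genes. Of 100 comparisons (10 genes, 10 pairs of lines) 72 passed an adjusted p of 0.05 in limma, beside 47.2% of all probe comparisons. All probes include many not well above background, unlike the reading probes. The partner genes listed below gave 55 of 80, the BMP targets 33 of 50 and the line and cell type markers 67 of 100. The time points of a line served as replicates here, so these tests describe the 5 cultures rather than repeated cultures of a line, and a gene expressed in fewer cells cannot be told apart from less RNA in each cell. T-47D had the lowest level of 7 of the 10 genes, KLF2, KLF4, KLF5, KLF7, KLF10, KLF11 and KLF13 (6 to 8 genes over the settings tried). Of all 18390 probes with vehicle well above background on every array, T-47D had the lowest mean level for 17.1%. Other probes of the same genes differed in part: T-47D was also lowest with the second KLF5 probe (-4.55), but it was highest with the dim second KLF2 probe (-4.19), and the lowest line was MDA-MB-361 with the second KLF11 probe (-3.38, T-47D -3.09) and MDA-MB-231 with the dim second KLF13 probe (-5.03, T-47D -4.20). With the reading probes T-47D was lower for 9 genes than ZR-75-30, HCC1954 and MDA-MB-361 each, beside 20.7%, 19.8% and 20.6% of all probes. It was higher than ZR-75-30 for 1 gene. Against MDA-MB-231 it was lower for 7 genes and higher for 1, beside 22.5% of all probes lower. The median over all probes, dim ones included, was 0.55 higher in T-47D than in HCC1954. The part of scaling in the T-47D levels was not tested.

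**Figure D4:**
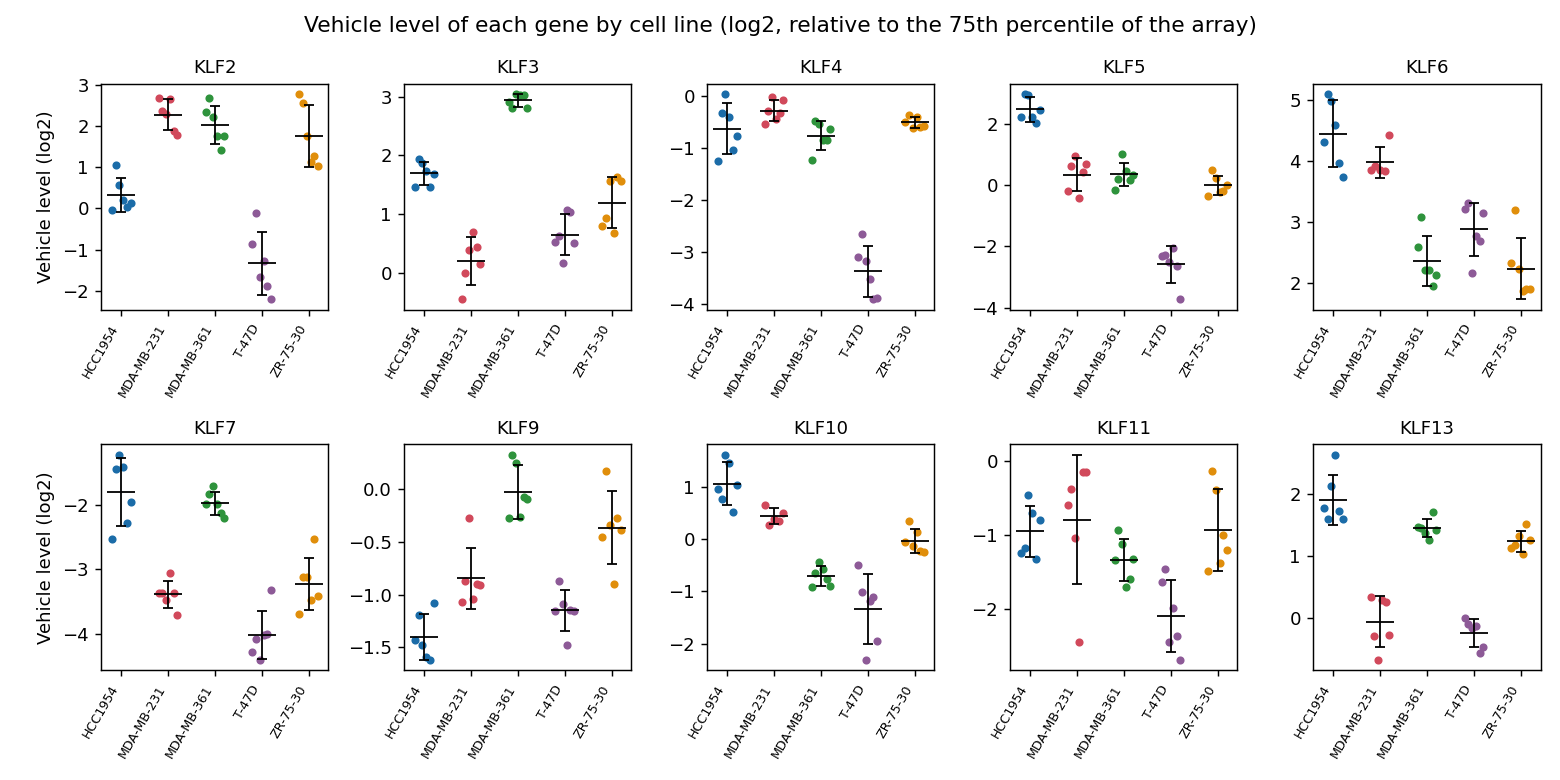
Vehicle level (log2 signal relative to the 75th percentile of the array) of each Kruppel-like factor in 5 cell lines, 1 point per time, with the mean and SD over 6 times (5 for KLF6 and KLF10 in MDA-MB-231); each panel has its own vertical scale. KLF5 spans 33.4-fold from HCC1954 to T-47D, and KLF4 is low in T-47D only.

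KLF5 spanned the widest range, with a mean vehicle level of 2.47 ± 0.40 (SD, n = 6) in HCC1954, 0.34 ± 0.39 in MDA-MB-361, 0.34 ± 0.54 in MDA-MB-231, -0.01 ± 0.31 in ZR-75-30 and -2.59 ± 0.60 in T-47D, a 33.4-fold span. HCC1954 was above the next line by 2.13 (adjusted p = 3.45e-08 in limma) and T-47D below the next by 2.58 (adjusted p = 2.40e-09). The 3 lines between did not differ from each other beyond their spread. The line with the lowest KLF5 vehicle level, T-47D, was also that with the highest mean BMP7 ratio, and both values share the vehicle reading.

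For KLF2 the order was MDA-MB-231 (2.28 ± 0.38), MDA-MB-361 (2.03 ± 0.46), ZR-75-30 (1.75 ± 0.75), HCC1954 (0.33 ± 0.41) and T-47D (-1.32 ± 0.76), a 12.1-fold span. The first 3 lines did not differ from each other. HCC1954 lay 1.43 below ZR-75-30 (adjusted p = 7.80e-06 in limma) and T-47D 1.65 below HCC1954 (adjusted p = 7.82e-07). This order rests on 1 probe, since the dim second KLF2 probe put T-47D highest (-4.19) and HCC1954 lowest (-4.84). KLF4 was at -0.28 to -0.76 in 4 lines that did not differ from neighbor to neighbor and at -3.37 ± 0.49 in T-47D, 2.61 below the next line (adjusted p = 1.69e-11). T-47D thus stood furthest apart for KLF4, 8.50-fold below MDA-MB-231. Among the other 4 lines only MDA-MB-361 and MDA-MB-231 differed, with MDA-MB-361 lower (log2 difference -0.48, adjusted p = 0.0306 in limma).

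KLF3 was the gene for which each line differed from the next. Its level was 2.93 ± 0.11 in MDA-MB-361, 1.69 ± 0.20 in HCC1954, 1.19 ± 0.44 in ZR-75-30, 0.65 ± 0.35 in T-47D and 0.20 ± 0.40 in MDA-MB-231, and the adjusted p of the 4 steps ran from 4.67e-06 to 0.0488 in limma. KLF6 was highest in HCC1954 (4.45 ± 0.55) and MDA-MB-231 (3.98 ± 0.25), which did not differ (adjusted p = 0.0957 in limma). After a step of 1.08 (adjusted p = 0.000449) followed T-47D (2.88), MDA-MB-361 (2.36) and ZR-75-30 (2.23). The steps between these last lines did not pass (adjusted p = 0.0582 and 0.74), but ZR-75-30 lay below T-47D (log2 difference -0.65, adjusted p = 0.019).

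KLF13, read from its brighter probe, was higher in HCC1954 (1.90), then MDA-MB-361 (1.45), then ZR-75-30 (1.24), and low in MDA-MB-231 (-0.06) and T-47D (-0.24), the pair of lines grown with less serum, so that line and serum cannot be told apart. The step between ZR-75-30 and MDA-MB-231 was 1.29 (adjusted p = 2.10e-06 in limma), and that between HCC1954 and MDA-MB-361 was 0.46 (adjusted p = 0.0432). The dim second KLF13 probe gave another order, with -3.83 in HCC1954, -4.20 in T-47D, -4.21 in ZR-75-30, -4.43 in MDA-MB-361 and -5.03 in MDA-MB-231. KLF7, known for a role in neurons and adipocytes, was likewise higher in HCC1954 (-1.81) and MDA-MB-361 (-1.98) than in ZR-75-30 (-3.23), MDA-MB-231 (-3.39) and T-47D (-4.02), with a step of 1.25 (adjusted p = 3.74e-05).

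KLF10 ran from 1.05 ± 0.41 in HCC1954 over 0.43 in MDA-MB-231, -0.03 in ZR-75-30 and -0.71 in MDA-MB-361 to -1.34 ± 0.67 in T-47D. Its upper steps did not pass (adjusted p = 0.063 and 0.0984 in limma) and its lower steps did (adjusted p = 0.0203 and 0.0278). KLF9 was highest in MDA-MB-361 (-0.03 ± 0.25) and lowest in HCC1954 (-1.40 ± 0.22), a 2.59-fold span. KLF11, also named TGF-β-inducible early gene 2, had the narrowest span, 2.47-fold, and only T-47D (-2.09 ± 0.49) differed from its neighbor (adjusted p = 0.04).

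The vehicle level of KLF2 fell during the experiment. Between the first hour (30 min and 1 h) and 12 h to 24 h it dropped by 1.02 ± 0.17 on the log2 scale (SE; 0.494-fold; adjusted p = 0.0123 in limma, cell line as block). This was 1 of 10 genes, beside 0.0268% of all probes, which is 11 of 41000. KLF2 was lower in 5 of 5 lines, with differences of -1.56 in T-47D, -1.51 in ZR-75-30, -0.92 in MDA-MB-361, -0.69 in MDA-MB-231 and -0.41 in HCC1954.

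The values of KLF2 over the 6 times were 2.78, 2.55, 1.76, 1.14, 1.27 and 1.03 in ZR-75-30 and -0.86, -0.10, -1.65, -1.26, -1.87 and -2.20 in T-47D. MDA-MB-361 read 2.35, 2.67, 2.22, 1.77, 1.42 and 1.76, and MDA-MB-231 read 2.68, 2.37, 2.30, 2.65, 1.88 and 1.79. In these 4 lines both late values lay below both early ones. In HCC1954, with -0.04, 1.05, 0.57, 0.20, 0.04 and 0.14, the early and late values overlapped. The BMP7 channel of the same arrays gave -0.86 ± 0.18 (SE; adjusted p = 0.064 in limma), lower in 4 of 5 lines.

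**Figure D5:**
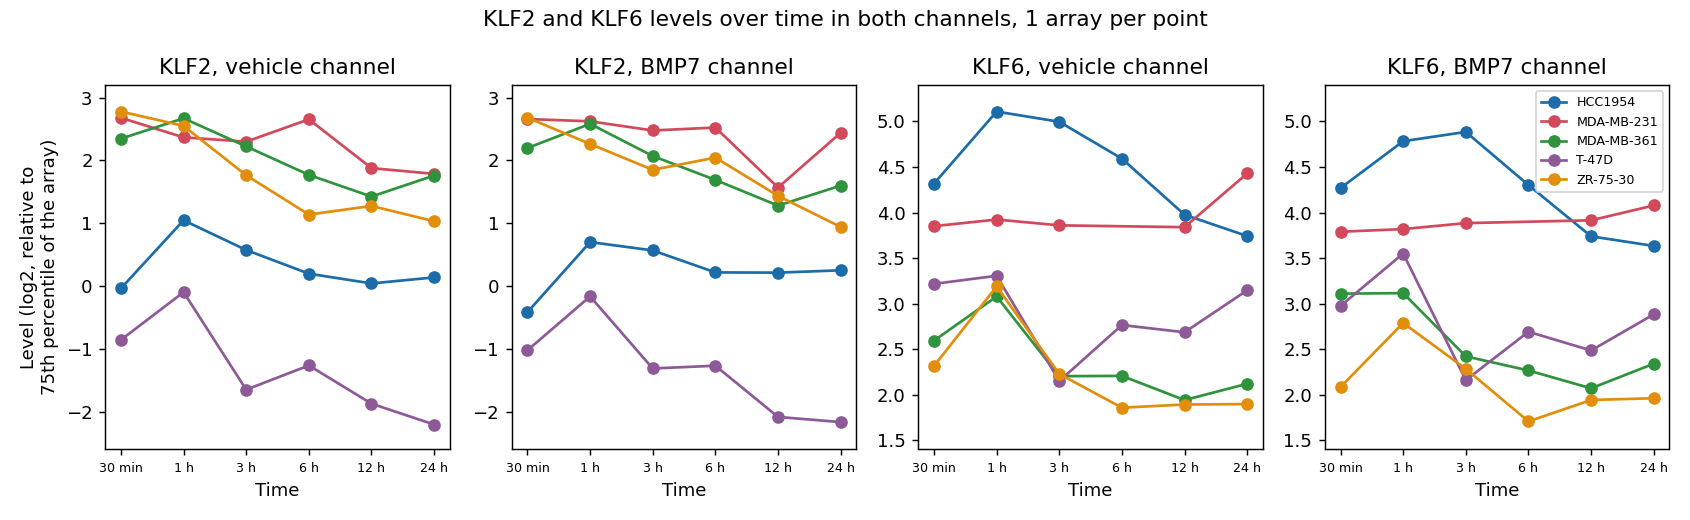
Level of KLF2 and KLF6 (log2 signal relative to the 75th percentile of the array) against time in 5 lines, in the vehicle and the BMP7 channel, 1 array per point. In vehicle KLF2 is lower at 12 h and 24 h than at 30 min and 1 h in 4 lines and overlaps in HCC1954; the KLF6 line of MDA-MB-231 passes over 6 h, which was not used.

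With the first scan batch alone KLF2 gave -1.10 (adjusted p = 0.00173 in limma). The second KLF2 probe, which was dim (mean level -4.84 to -4.19), gave -0.03 ± 0.26 (SE), so the fall rests on 1 probe. The call was lost in 7 of 11 fits that left out 1 line or 1 time, with the difference between -1.18 and -0.86 over those fits: it was lost without MDA-MB-231 (adjusted p = 0.0564), MDA-MB-361 (0.188), T-47D (0.117), ZR-75-30 (0.218), 1 h (0.299), 12 h (0.474) or 24 h (0.269).

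KLF6 gave a difference of -0.52 ± 0.18 (SE; adjusted p = 0.428 in limma) in the same comparison and did not pass, with an unadjusted p under 0.05. It was lower at 12 h to 24 h in 4 of 5 lines, with log2 differences of -0.86 in ZR-75-30, -0.85 in HCC1954, -0.81 in MDA-MB-361 and -0.35 in T-47D, and differed by 0.25 in MDA-MB-231. Its 3 other probes gave -1.20, -0.76 and -0.30, none past the adjusted threshold (adjusted p = 0.0795, 0.0636 and 0.839). The differences of the other 8 genes lay closer to 0, with a median of -0.18 over all 10.

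Other genes of the family did not pass in the mean and late comparisons either. Of the 14 further KLF and SP genes on the array (KLF1, KLF8, KLF12, KLF14, KLF15, KLF16, KLF17, SP1 to SP5, SP7 and SP8) 0 passed in either comparison in limma. An unadjusted p under 0.05 was reached by 3 and 4 of them, beside 6167 and 6926 of 40034 probes. The median differences of these 14 genes were 0.04 and -0.06. In the comparison of lines 4 of 70 passed, beside 1.36% of all probe tests. Of all 39620 probes, 593 passed in HCC1954 and 710 in ZR-75-30. KLF16 was lower in HCC1954 (-0.76, adjusted p = 0.0361 in limma) and higher in ZR-75-30 (1.06, adjusted p = 0.00611). KLF15 passed in ZR-75-30 (lower, adjusted p = 0.0497) and SP5, a target of Wnt signaling, was higher there (1.05, adjusted p = 0.0154). The 6 h array of ZR-75-30 was in the second scan batch. KLF16 and SP5 were well above background in both channels on all arrays, whereas KLF15 was so on 16 of 30, which included 1 of 6 ZR-75-30 and 0 of 6 HCC1954 arrays, so its difference has no measured size. In ZR-75-30 the vehicle level varied widely over the 6 times, from 1.04 to 5.19 for KLF16 and from -1.57 to 3.35 for SP5. The BMP7 ratios there had both signs, from -1.07 to 1.53 for KLF16 and from -0.71 to 1.75 for SP5.

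Of 8 partner genes, the corepressors SIN3A, SIN3B, CTBP1, CTBP2, HDAC1 and HDAC2 and the ubiquitin ligase genes WWP1 and FBXW7, whose products act on KLF5, 0 passed in the mean, late, single-time or line comparisons in limma, with 0, 0, 1 and 4 at an unadjusted p under 0.05. The shares of all probes at that unadjusted limit are given above for each comparison. The vehicle level of these partner genes differed in 55 of 80 comparisons of lines, beside 70 of 140 for the further family genes.

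The genes whose BMP7 ratio was most like that of a Kruppel-like factor were found by Pearson correlation over 30 arrays (29 for KLF6 and KLF10), among 8511 genes (9203) with a probe well above background on at least 24 arrays. For KLF5 they were CPEB4 (r = 0.86), AZIN1 (0.80) and IGFBP5 (0.78). For KLF2 they included CTH (0.85) and MAPK8 (0.77), and for KLF6 they were ELF2, SETD2 and ANKRD17 (0.81 to 0.82). KLF3 came closest to E2F3 (0.96) and SH3RF1 (0.96), and KLF10 to SMARCA5 (0.92), MELK (0.91) and FAM120A (0.90). For KLF13 the first gene was SCARB1 (0.89), for KLF11 SAP130 (0.84), for KLF4 ARPC1A (0.81) and for KLF7 SERPINE2 (0.75). These values are the highest of many and describe arrays that share lines and scans.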

How the data were processed

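Expression was measured on 30 two-color Agilent 44K arrays (13 slides, 2 scan batches), 1 per cell line and time, with pooled cultures in each channel. The authors extracted the intensities with Feature Extraction (version 9.5.1.1 per the file headers, design on hg18), which subtracted background and corrected dyes by a linear and lowess step. The deposited log10 ratio (Cy5 over Cy3) was turned to log2 and each array centered on its median. Levels are the deposited processed intensities as log2 minus the 75th percentile of each array. The log2 values of the deposited series matrix (40997 probes; r = 0.825 to 0.998 with the scanner ratios of the same arrays; column medians 0; the matrix gives no statement of its scale or centring) served as an alternative. The software's error and p columns were not used.

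Spots marked as outliers were left out, saturated spots kept. Each gene was read from its brightest probe. All members are named; the most alike genes are the 3 with the highest correlation, some of which are not reported here. Tests were run with limma 3.58.1 in R 4.3.3 over all probes with Benjamini-Hochberg adjustment at 0.05, after 966 probes with a ratio of 0 on every array had been left out, a choice made after seeing the data. The fits were tested on simulated data. Of the 18 member probes, 15 matched RefSeq by accession. The members and gene lists were chosen with earlier results of these data known, and the motifs after the promoter sequences were seen. Settings tried were normexp (offset 50), loess, median and quantile scaling, spot filters, probe averaging, scan batch, slide (correlation 0.0345) or line (0.139) as a random block, and leaving out lines or times. The number of arrays limits the precision.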

Additional observations from a re-analysis of the deposited data

Results flagged for a closer look

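KLF6 had BMP7 ratios above 0 on every MDA-MB-361 array, the lowest being 0.0384, and below 0 on every HCC1954 array, the highest being -0.0559. The difference between these 2 lines was not tested as a pair, and the share of all probes with such a pattern was not counted. A second KLF6 probe gave a difference of -0.3492 between HCC1954 and the other lines at 3 h to 24 h, which passed the adjusted threshold of limma, while the other probes outside the reading gave -0.1582 (a dim probe, below 0 on all 6 HCC1954 arrays) and 0.0468, neither past it.

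Among the genes set beside the 10 factors, these differed between 1 line and the mean of the others at 3 h to 24 h in limma (log2 differences): KLF16 in HCC1954 by -0.7637 and in ZR-75-30 by 1.0604, KLF15 in ZR-75-30 by -0.7231 and SP5 in ZR-75-30 by 1.0517. The KLF15 probe was well above background in both channels on 1 of 6 ZR-75-30 and 0 of 6 HCC1954 arrays, so the size given for it is not that of a measured level. Over the 6 ZR-75-30 arrays the ratios of KLF16 (-1.07 to 1.53) and SP5 (-0.71 to 1.75) had both signs. Of the BMP targets, SMAD6 differed in MDA-MB-361 by 0.8608, and ID2 and ID3 in T-47D by -0.6061 and -0.7739.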

How the results depend on the processing

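The number of members called in the mean, late, single-time and line comparisons stayed at 0 except as follows. With normexp and median scaling, 1 of 10 was called in the mean, 9 of 60 at single times and 2 of 50 between lines, and 13 values passed 2-fold; that setting called 7.67% of all probes in the mean, against 0.120%. With normexp and loess, 1 was called between lines (KLF6 in MDA-MB-361, 0.29, adjusted p = 0.0368 in limma) and 0 values passed 2-fold. With spots well above background in both channels only, 1 was called between lines (KLF5 in T-47D). The shares of all probes under these settings are not given for the single-time and line counts, so these counts are not read as results about the members. Over all settings up to 21645 probe tests were called at single times and up to 19755 between lines. At a limit of 1.5-fold 16 values passed. Leaving out 1 line gave 0 to 1 values past 2-fold (0 without T-47D). The call of KLF2 over time in vehicle was lost, to 0 of 10 members, with normexp background (-0.83), the mean of all probes (-0.52) and the BMP7 channel (chosen after seeing the data), and ranged from 0 to 1 over 11 leave-outs. Of the 72 vehicle differences between lines, 60 to 71 were also called in the same direction under 14 other settings, with at most 2 sign changes.

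The direction turned with normexp and median scaling for KLF4 (0.013) and KLF9 (0.0056) in the mean, KLF5 in the late comparison (-0.14), KLF9 in MDA-MB-231 (0.015) and KLF5 in T-47D (-0.027) against the other lines; with the first scan batch only, chosen after seeing the data, for KLF11 in the late comparison (0.052); with the second scan batch only, likewise chosen later, for KLF5 in the late comparison (-0.046); and for KLF4 over time in vehicle with normexp background (0.077) and between -0.44 and 0.061 over the leave-outs. The cause was not tested. Values under 1 SE from 0 were given no direction, and over the leave-outs the sign also varied for KLF5 (-0.45 to 0.11), KLF7 (-0.12 to 0.28), KLF9 (-0.27 to 0.12) and KLF13 (-0.15 to 0.076) over time in vehicle, for KLF2, KLF3, KLF10, KLF11 and KLF13 in the mean and for KLF6, KLF7 and KLF13 in the late comparison. Over all settings, the number of probes called ranged from 0 to 3146 in the mean (48 in the report; 4 with the 966 probes kept), 0 to 1040 in the late comparison (54), 0 to 21645 at single times (1), 55 to 19755 between lines (2703), 2 to 29 over time in vehicle (11) and 128430 to 209979 for vehicle levels (193688). No paired analysis was possible because the labels number no replicates within a line and time; each log ratio already pairs BMP7 with vehicle on its array, and cell line was a block in the time comparisons. Depth of signal limits the dim second probes of KLF2, KLF3 and KLF13 and the fourth KLF6 probe.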
